A study of Mus musculus with 9 samples.

Results

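Imprinted genes are expressed mainly from the allele of a single parent, and those described here are growth-related imprinted genes that lie outside the Dlk1-Dio3 cluster. The set names Plagl1, Peg3, Ndn, Magel2, Grb10, Sgce, Peg10, Mest, Nnat and H19, 10 genes in all, and 9 of them had a probe set annotated to their symbol alone among 19938 genes measured. H19 was not analysed here, since no probe set of the annotation used names it, alone or with other symbols. The probe set of Mir675, a microRNA gene inside H19, also names Supt6 and was left out with all probe sets of several symbols. The rule for genes with several probe sets, to keep the brightest, had no effect here, since each of the 9 genes had 1 probe set. The genes were put on the list with earlier results of these data known, so their number among the changed genes is a description of the list. RNA came from mouse embryonic fibroblasts of littermate embryos with 3 genotypes at Rb1, the retinoblastoma gene: Rb +/+ (WT), Rb ∆G/∆G (∆G), homozygous for an allele of gene-targeted mice that alters the protein's common contact with E2F transcription factors, and Rb -/- (null). Each genotype had 3 arrays, 9 in all. All cultures were sparsely plated in 15 cm dishes and moved after 24 h to medium with 0.1% serum, which takes normal fibroblasts out of the cell cycle, so all groups share serum starvation. The sources used here do not give the age of the embryos or the extent of the null allele.

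Imprinted genes are marked by DNA methylation set in the germ line of a single parent. The mark at a control region affects which parent's copy of each gene in its domain is expressed, and this can differ between neighbours. Several of them act on fetal growth. Many are high in embryonic mesenchyme, fall after birth and are known to be expressed together, and Plagl1 is known as a transcription factor that can activate other imprinted genes. In most mouse tissues H19 and Grb10 are expressed from the maternal allele and the other genes of the set from the paternal allele. The array measures both alleles together, so imprinting itself was not measured.

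Array medians lay between 6.33 and 6.40 (log2 signal), and no pair of arrays was identical. ∆G replicate 3 stood apart from its group, with a score of −0.30 on the first principal component (51.8% of the variance). Scores there were −13.9 and −11.5 for the other ∆G arrays, −21.3 to −14.7 in WT and 24.2 to 27.4 in null. The arrays also differed in sex pattern. Xist, expressed from the inactive X chromosome of female cells, was at 11.4 to 12.0 on all 3 null arrays and on WT replicate 3, and at 4.24 to 4.45 on the other 5 arrays, which expressed the Y-linked gene Eif2s3y. Sex pattern and genotype thus cannot be told apart between ∆G and null, and results against WT are given below with and without WT arrays of the other pattern. Rb1 itself was at 9.08 ± 0.14 in WT, 9.61 ± 0.13 in ∆G and 8.31 ± 0.23 in null (log2 signal, mean ± SD, n = 3 each), with a fall of 0.77 in null (limma adjusted p = 0.0011) and an uncalled ∆G change of 0.53 (limma adjusted p = 0.075). Probes outside the deleted part of a null allele would still report RNA, so the remaining null signal does not check the labels.

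Promoter windows are shown for the genes whose level differed between genotypes and for which RefSeq gave a sequence (GRCm38.p6, 250 bases before to 50 after the annotated start), because the ∆G allele is defined by lost E2F contact. Of the 10 genes 7 had a window, and for Grb10 the first of its 2 windows is shown. Capitals mark matches to an E2F motif spelled TTTCCCGC, TTTCGCGC, TTTGCCGC or TTTGGCGC, or to TGCCGC, the motif of ZFP57, a zinc finger protein that binds methylated imprinting control regions. Both strands were searched.
Plagl1, chr10:13090582-13090881, plus strand: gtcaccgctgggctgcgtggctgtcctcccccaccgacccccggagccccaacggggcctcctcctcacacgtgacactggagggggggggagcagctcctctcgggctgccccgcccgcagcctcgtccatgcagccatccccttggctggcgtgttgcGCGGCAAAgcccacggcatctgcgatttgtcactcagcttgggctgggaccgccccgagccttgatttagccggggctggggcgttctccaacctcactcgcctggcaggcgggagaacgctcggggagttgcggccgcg
Peg3, chr7:6730370-6730669, minus strand: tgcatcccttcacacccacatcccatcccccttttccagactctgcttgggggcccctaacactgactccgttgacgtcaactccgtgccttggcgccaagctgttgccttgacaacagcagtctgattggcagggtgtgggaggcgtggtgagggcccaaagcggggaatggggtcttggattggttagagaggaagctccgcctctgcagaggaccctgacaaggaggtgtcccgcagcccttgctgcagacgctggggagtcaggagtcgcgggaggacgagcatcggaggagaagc
Ndn, chr7:62348027-62348326, plus strand: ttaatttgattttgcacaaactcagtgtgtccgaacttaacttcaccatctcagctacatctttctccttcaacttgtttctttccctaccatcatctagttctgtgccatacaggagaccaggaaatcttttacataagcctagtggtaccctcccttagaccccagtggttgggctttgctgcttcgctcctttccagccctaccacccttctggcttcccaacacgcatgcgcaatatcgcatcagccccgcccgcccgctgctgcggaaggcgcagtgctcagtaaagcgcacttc
Grb10, chr11:12037371-12037670, minus strand: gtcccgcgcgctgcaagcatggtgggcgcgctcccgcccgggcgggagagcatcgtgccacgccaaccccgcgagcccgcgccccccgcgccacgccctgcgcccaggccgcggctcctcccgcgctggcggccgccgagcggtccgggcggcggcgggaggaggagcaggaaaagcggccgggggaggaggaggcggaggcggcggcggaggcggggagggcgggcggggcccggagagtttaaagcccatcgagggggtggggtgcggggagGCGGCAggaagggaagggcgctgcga
Nnat, chr2:157559828-157560127, plus strand: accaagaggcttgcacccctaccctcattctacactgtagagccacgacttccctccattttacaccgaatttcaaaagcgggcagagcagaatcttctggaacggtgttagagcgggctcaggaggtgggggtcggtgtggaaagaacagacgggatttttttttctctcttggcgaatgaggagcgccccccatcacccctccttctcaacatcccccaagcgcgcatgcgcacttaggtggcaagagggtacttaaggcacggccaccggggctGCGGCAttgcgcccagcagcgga
Plagl1 held the only E2F match among the windows of the 7 genes, TTTGCCGC on the opposite strand (printed as GCGGCAAA) beginning 90 bases before the start, and it overlaps a TGCCGC match. An E2F spelling occurred in 2.26% of 32851 promoter windows and TGCCGC in 11.6%. The Grb10 and Nnat windows each held 1 TGCCGC match, at 25 and 28 bases after the start, and Peg3 and Ndn held neither motif. The Grb10 window had 45 CpG sites and that of Plagl1 26, against a median of 7 over all windows, while Peg3, Ndn and Nnat had 13, 11 and 17. These matches describe the sequence in the windows only.

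The main comparison asked how loss of Rb1 changed the level of these genes. In null cells 5 of the 9 measured genes fell and none rose against WT in limma (Benjamini-Hochberg adjusted p under 0.05 over all genes), where 10.1% of all genes were called lower, 8.38% higher and 18.4% in either direction. The 5 were Plagl1, Peg3, Ndn, Sgce and Grb10, with falls of 0.57, 0.59, 0.43, 0.38 and 0.32 on the log2 scale, which are folds of 1.48, 1.5, 1.35, 1.30 and 1.25. Mest, Peg10, Magel2 and Nnat were not called. The median log2 change of the 9 genes was −0.32 and that of all genes −0.01. In ∆G cells no member was called against WT by limma, with 1 at an unadjusted p under 0.05, where 0.813% of all genes were called, 0.602% higher and 0.211% lower. Levels of fibroblast markers moved with these falls: 9 of 11 fell in null (median −0.59, mean level 10.11 to 10.40 on null and 10.85 to 11.10 on WT arrays), and their part in the result was not tested. In bulk RNA, fewer cells of a type and less RNA per cell cannot be told apart.

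**Figure D1:**
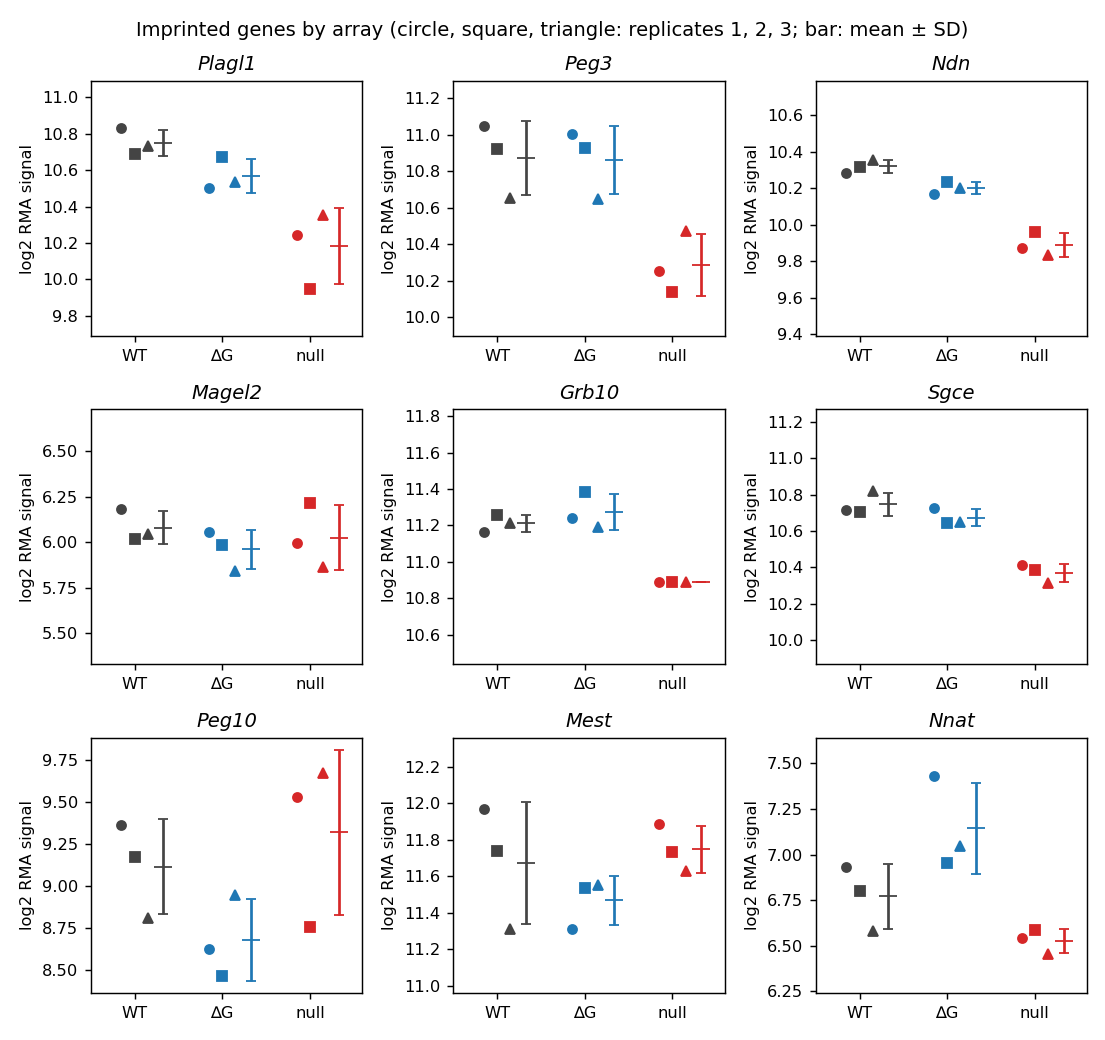
Log2 RMA signal of each of the 9 measured genes (vertical axes, one panel a gene) on the 3 arrays of WT, ∆G and null (horizontal axis), with replicates as symbols and the mean ± SD beside them. The null arrays lie below all WT and ∆G arrays for Plagl1, Peg3, Ndn, Grb10 and Sgce, and the groups overlap for Magel2 and Peg10.

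Plagl1 and Peg3 encode zinc finger transcription factors, both known to restrain growth or promote cell death, Plagl1 by arresting the cell cycle and Peg3 in the p53 pathway. Plagl1 was at 10.83, 10.69 and 10.73 on WT replicates 1, 2 and 3, at 10.50, 10.67 and 10.53 in ∆G and at 10.24, 9.95 and 10.35 in null (log2 signal). Every null array lay below every ∆G array, and every ∆G array below every WT array. The share of all genes that separate this way was not counted, so such orders, here and below, are descriptions. The fall in null against WT was 0.57 (SE 0.10, limma adjusted p = 0.0029, n = 3 each), and the ∆G change of −0.18 was not called (SE 0.10, limma adjusted p = 0.54). Peg3 was at 11.05, 10.92 and 10.65 in WT, at 11.003, 10.93 and 10.65 in ∆G and at 10.25, 10.14 and 10.47 in null. WT and ∆G covered nearly the same range, with replicate 3 lowest in both, and the null arrays lay below both groups. Peg3 fell by 0.59 in null (SE 0.13, limma adjusted p = 0.0078), and its ∆G change was −0.01 with a 95% confidence interval of −0.29 to 0.27.

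Ndn and Magel2 are neighbours on chromosome 7 and both belong to the MAGE family. Necdin, the product of Ndn, is a growth suppressor known to bind E2F1 and p53, and MAGEL2 acts with a ubiquitin ligase in endosomal protein recycling. Ndn was at 10.29, 10.32 and 10.36 in WT, at 10.17, 10.23 and 10.20 in ∆G and at 9.87, 9.96 and 9.83 in null. The groups did not overlap and stood in the order WT, ∆G, null, a description as for Plagl1. The null change of Ndn against WT was −0.43 (SE 0.07, limma adjusted p = 0.0012), while its ∆G change of −0.12 was not called (95% interval −0.26 to 0.03, limma adjusted p = 0.54). Its spread within groups was small, with a pooled SD of 0.05. Magel2 lay between 5.84 and 6.22 on all 9 arrays, below the array medians of 6.33 to 6.40. Its mean level was at the 40.3 percentile of all genes, against 95.3 for Ndn, and whether it was expressed was not tested. All 3 groups overlapped, and the null change was −0.06 (95% interval −0.27 to 0.16).

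Grb10 encodes an adaptor that binds the insulin and IGF1 receptors and dampens their signal. It was at 11.17, 11.26 and 11.21 in WT, at 11.24, 11.39 and 11.19 in ∆G and at 10.89 on each of the 3 null arrays. WT and ∆G overlapped and the null arrays lay below both. Grb10 fell by 0.32 in null (SE 0.07, limma adjusted p = 0.0089), and that call was lost when quantile normalisation was repeated on the deposited values (change −0.26, limma adjusted p = 0.060). Its ∆G change was 0.06 (95% interval −0.09 to 0.22).

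Sgce, which encodes epsilon-sarcoglycan of the cell membrane, and Peg10, derived from a retrotransposon and needed in the placenta, start next to each other on chromosome 6 in opposite directions. Sgce was at 10.72, 10.71 and 10.82 in WT, at 10.73, 10.64 and 10.65 in ∆G and at 10.41, 10.38 and 10.32 in null. Null arrays lay below all others, and WT and ∆G overlapped. Sgce fell by 0.38 in null (SE 0.07, limma adjusted p = 0.0029), and its ∆G change was −0.07 (95% interval −0.22 to 0.08). Peg10 was at 9.36, 9.18 and 8.81 in WT, at 8.63, 8.46 and 8.95 in ∆G and at 9.53, 8.76 and 9.67 in null. Its arrays were widely spread and the groups overlapped, with the pooled SD of 0.36 at the 98.7 percentile of all genes, against 0.05 for Sgce at the 5.1 percentile. The Peg10 changes were 0.20 in null (95% interval −0.28 to 0.69) and −0.44 in ∆G (−0.92 to 0.05), and neither was called.

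Mest, a gene of the hydrolase fold family that is high in embryonic mesoderm, was at 11.97, 11.74 and 11.31 in WT, at 11.31, 11.54 and 11.55 in ∆G and at 11.89, 11.73 and 11.63 in null. WT spanned the range of all arrays, and WT replicate 3 was its lowest array. Changes were 0.08 in null (95% interval −0.24 to 0.39) and −0.21 in ∆G (−0.52 to 0.11), neither of them called. A microRNA, miR-335, lies inside Mest on the same strand. Its mature forms are shown with the seed, bases 2 to 8, in capitals, since they share their host's transcript.
mmu-miR-335-5p: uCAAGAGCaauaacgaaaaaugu
mmu-miR-335-3p: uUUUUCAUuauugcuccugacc
The Mir335 probe set lay between 5.35 and 5.94 on all arrays, with overlapping groups and a null change of 0.04 (95% interval −0.23 to 0.31). Its mean level was at the 32.5 percentile of all genes. Whether it was expressed was not tested, and the mature forms were not measured apart.

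Nnat encodes neuronatin, a small membrane proteolipid known from neural tissue and fat. It was at 6.93, 6.80 and 6.58 in WT, at 7.43, 6.95 and 7.05 in ∆G and at 6.54, 6.58 and 6.45 in null. All ∆G arrays lay above all WT arrays, and null overlapped WT. Its ∆G change of 0.37 had the only unadjusted p under 0.05 of the set against WT and was not called (SE 0.12, limma adjusted p = 0.24). In null the change was −0.25 (limma adjusted p = 0.22).

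The comparison of ∆G with null, whose arrays also enter the comparisons with WT, set cells whose protein lacks the common E2F contact against cells without the protein. All null arrays expressed Xist and all ∆G arrays the Y-linked Eif2s3y. Effects of genotype and sex pattern thus cannot be told apart here. Of the 9 genes 6 were higher in ∆G and none was lower, where 4.44% of all genes were called higher, 4.27% lower and 8.71% in either direction. Nnat was 1.53-fold higher, Peg3 1.49-fold, Plagl1 1.31-fold, Grb10 1.30-fold, Ndn 1.24-fold and Sgce 1.23-fold (log2 changes 0.62, 0.58, 0.39, 0.38, 0.31 and 0.30, SE 0.07 to 0.13, limma adjusted p = 0.0074 to 0.039). Peg10 and Mest had log2 changes of −0.64 and −0.28 and were not called (limma adjusted p = 0.10 and 0.28), though the Mest arrays of these groups did not overlap. Markers of other kinds moved in this comparison too. Of 11 fibroblast markers 6 were higher in ∆G (median 0.50), and the 10 macrophage and leukocyte markers had changes of 0.43 to 1.68 (median 0.71), none called by limma and 5 at an unadjusted p under 0.05. Their part in the 6 differences was not tested. None of the 6 was called with a Y-linked covariate, as given below. The calls of Grb10 and Nnat held when any single array was left out. Among other settings, Plagl1 lost its call with median centring (limma adjusted p = 0.054), with these 2 groups alone (0.062) and with all probe sets (0.091), where Peg3 lost it too (0.053). Plagl1 lost its call without WT replicate 2 (limma adjusted p = 0.051), ∆G replicate 1 (0.083), ∆G replicate 2 (0.14), null replicate 1 (0.088) and null replicate 2 (0.099). Peg3 lost its call without ∆G replicate 1 or 2 or null replicate 1 or 2 (0.080, 0.070, 0.071 and 0.061). Sgce did so without ∆G replicate 1 or 2 or null replicate 1 or 3 (0.090, 0.051, 0.053 and 0.064), and Ndn without ∆G replicate 2 or null replicate 1 or 3 (0.057, 0.063 and 0.051). Peg10 was called lower in ∆G without null replicate 2 (change −0.92, limma adjusted p = 0.012).

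**Figure D2:**
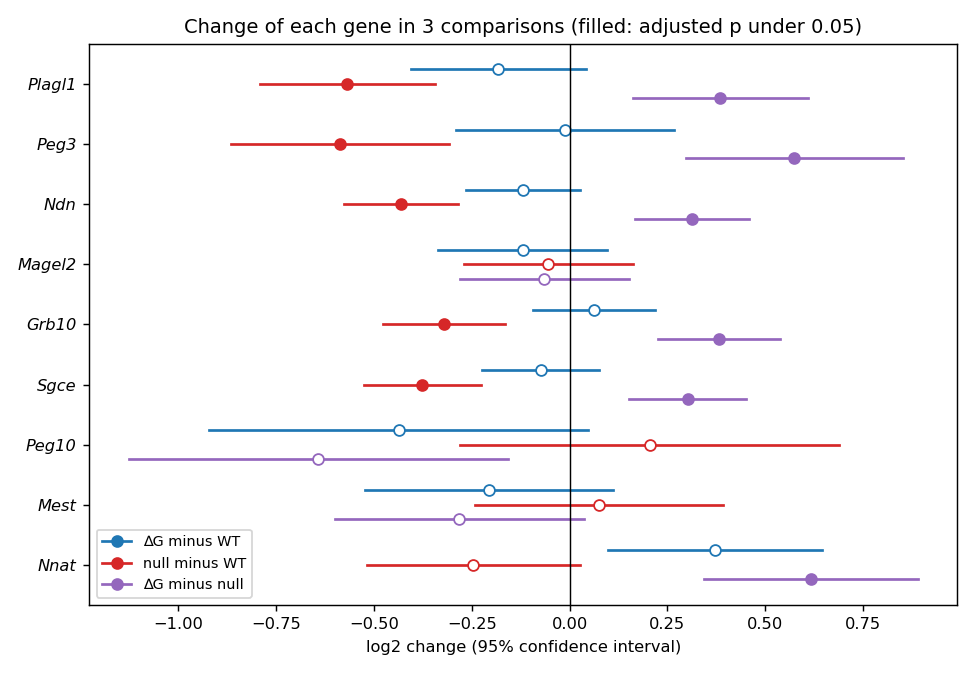
Log2 change of each of the 9 genes (horizontal axis, points) with its 95% confidence interval (lines) for ∆G minus WT, null minus WT and ∆G minus null. Filled points passed an adjusted p of 0.05, and none of the ∆G minus WT points is filled.

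The falls in null were then set against the sex pattern. With WT replicate 3 alone as the reference, the WT array that shares the null pattern, Ndn and Sgce fell by 0.47 and 0.45 and stayed called (limma adjusted p = 0.023 and 0.026). Plagl1 and Grb10 had changes of −0.55 and −0.32, near those with all WT arrays, and were not called (0.059 and 0.11). Peg3 had a change of −0.37, smaller than the −0.59 with all WT arrays, and was not called either (0.22). This fit assumes that the single WT array varies like the other genotypes. A Y-linked covariate, the mean of 3 genes, was also fitted. Changes were then −0.47 for Ndn, −0.45 for Sgce, −0.56 for Plagl1, −0.31 for Grb10 and −0.33 for Peg3. Only Ndn and Sgce were called (limma adjusted p = 0.020 and 0.021, against 0.059, 0.12 and 0.27). Within groups the Y-linked signal varied mainly in WT, through replicate 3 (SD of Eif2s3y 3.15, against 0.01 in ∆G and 0.03 in null). Uty had SDs of 2.64, 0.105 and 0.147 in WT, ∆G and null. Kdm5d had 1.70, 0.78 and 0.14, and its level on ∆G replicate 3 was 7.14, against 8.52 and 8.47 on replicates 1 and 2. The covariate fit thus rests mostly on WT replicate 3 and is no separate check, also for ∆G minus null. In that fit none of the 6 differences between ∆G and null was called (limma adjusted p = 0.20 to 0.75). Their sizes were 0.37 for Plagl1, Ndn and Grb10 and 0.42 for Sgce, with SE 0.13 to 0.20, against 0.39, 0.31, 0.38 and 0.30 without the covariate. Peg3 and Nnat were at 0.19 and 0.30 with it and at 0.58 and 0.62 without. Leaving out any single array kept all 5 genes called in null minus WT. With WT replicate 3 alone as the reference, the null changes of the other genes were 0.44 for Mest, 0.51 for Peg10, −0.05 for Nnat and −0.02 for Magel2. With all WT arrays they were 0.076, 0.205, −0.246 and −0.055. Against the 2 WT arrays of its own pattern ∆G again had no called member. Changes there were −0.39 for Mest, −0.59 for Peg10 and 0.28 for Nnat, against −0.21, −0.44 and 0.37 with all WT arrays. They were −0.19 for Plagl1, −0.12 for Peg3, −0.10 for Ndn, 0.06 for Grb10, −0.04 for Sgce and −0.14 for Magel2.

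**Figure D3:**
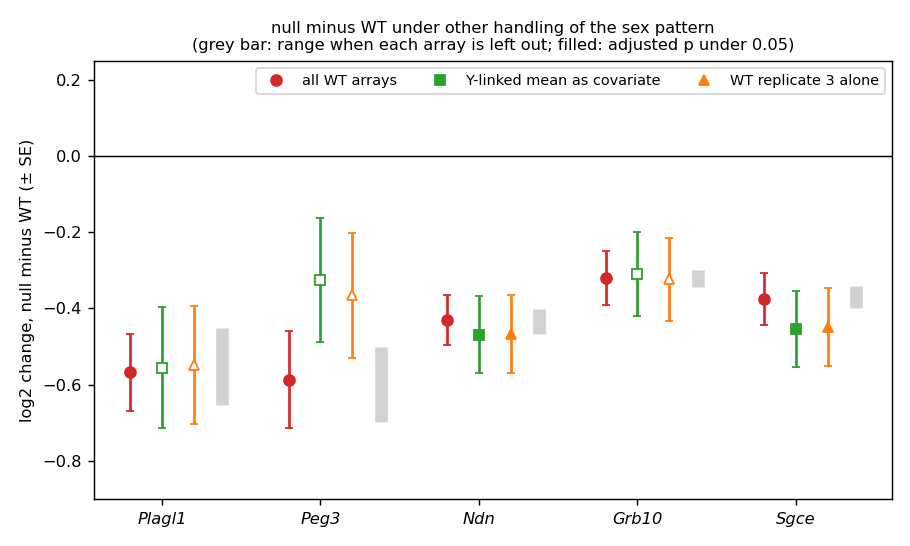
Log2 change in null minus WT (vertical axis, ± SE) of the 5 genes that fell, under 3 settings: every WT array, the Y-linked covariate, and WT replicate 3 alone. Filled symbols passed an adjusted p of 0.05, and grey bars give the range when each array is left out in turn.

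Other genes in or near the domains of the set were read from a list of 38 names, of which 31 were measured. In null 4 fell and 1 rose, 16.1% against 18.4% of all genes, with a median log2 change of −0.10. Cdkn1c, an imprinted inhibitor of cyclin-dependent kinases, was 1.76-fold lower (log2 change −0.82, SE 0.18, limma adjusted p = 0.0080), and Copg2, a coat protein gene next to Mest, 1.27-fold lower. Ddc, next to Grb10, and Blcap, within which Nnat lies, were each 1.29-fold lower. Atp10a, a lipid flippase gene in the domain of Ndn, was 1.52-fold higher in null and 1.51-fold higher in ∆G (limma adjusted p = 0.0029 and 0.033). In ∆G it was the only called gene of the list, 3.23% against 0.813% of all genes, with 6 at an unadjusted p under 0.05. Atp10a lost that ∆G call without any of 7 arrays: each WT array, ∆G replicates 1 and 2, and null replicates 1 and 3 (adjusted p up to 0.12 in limma). Ddc lost its null call without WT replicate 2 or 3 or null replicate 1 or 2, and Blcap without WT replicate 2 or 3 or null replicate 1 or 3 (adjusted p up to 0.080 and 0.10 in limma). Against WT replicate 3 alone Copg2, Cdkn1c and Blcap were not called, with changes of −0.38, −0.67 and −0.40. Between ∆G and null, Zim1 and Cdkn1c were 1.68-fold and 1.65-fold higher in ∆G, 2 of 31 genes against 4.44% of all genes (limma adjusted p = 0.033 and 0.028). Both lost that call without ∆G replicate 1 or 2 or null replicate 1 or 2 and with the Y-linked covariate (limma adjusted p up to 0.51 and 0.56). Igf2, the paternally expressed growth factor gene beside H19, was at 11.36 to 11.99 on all arrays, and its null change of −0.09 was not called.

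Neighbours within a domain were compared in 6 pairs, chosen after their values had been seen, by the difference of their log2 changes on the same arrays. In null minus WT the change of Ndn minus that of Magel2 was −0.38 (two-sided exact permutation p = 0.10, the smallest that 3 against 3 arrays allow, adjusted 0.30 over 18 tests). Magel2 was dim, so a fall in it may not have been visible. Sgce and Peg10 differed by −0.58 there (exact permutation p = 0.30, adjusted 0.45) and by 0.94 in ∆G minus null (exact permutation p = 0.10, adjusted 0.30). Peg3 and Zim1, the maternally expressed zinc finger gene beside it, had null changes of −0.59 and −0.46 (exact permutation p = 0.40, adjusted 0.48), and the Zim1 change was not called there. Copg2 and Mest differed by −0.42 in null (exact permutation p = 0.20, adjusted 0.36). The pairs Plagl1 with Phactr2 and Grb10 with Ddc had differences of −0.33 and 0.04 in null (exact permutation p = 0.20 and 0.80, adjusted 0.36 and 0.85). Since 0.10 is the smallest p of this test, no pair could have passed it, and these values are a description.

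Imprinted genes from elsewhere in the genome were a list of 37 names with 31 measured, including the Dlk1-Dio3 cluster. In null 9 fell and 2 rose, 35.5% against 18.4% of all genes, with a median of −0.13. That share describes the list, in which Meg3, Rian, Rtl1 and Dlk1 lie in a single cluster. Whether the listed genes are imprinted in these cells was not measured. Dcn, a matrix proteoglycan gene imprinted in the mouse placenta, was 2.6-fold lower, Qpct, which encodes an enzyme that modifies peptide ends, 2.09-fold, Zdbf2 1.71-fold and Impact, a regulator of translation, 1.34-fold (limma adjusted p = 6.6e-05, 0.0017, 0.00017 and 0.0014). Within Dlk1-Dio3, Meg3 and Rian, both maternal non-coding RNAs, were 2.04-fold and 1.92-fold lower, and Rtl1 and Dlk1, both paternal, 1.49-fold and 1.75-fold. The amino acid transporter gene Slc38a4 rose 1.61-fold and the chloride channel gene Ano1 2.68-fold, and H13 was 1.31-fold lower. Dlk1 lost its call without any array but ∆G replicates 1 and 3 and null replicate 3, and H13 without WT replicate 1 or 2 or null replicate 1 or 3 (adjusted p up to 0.15 and 0.086 in limma). Against WT replicate 3 alone Dlk1, H13 and Ano1 were not called either. No gene of the list was called in ∆G minus WT by limma, with 6 at an unadjusted p under 0.05. Between ∆G and null 8 were higher in ∆G and 1 was lower, against 4.44% and 4.27% of all genes. Zdbf2 was 1.83-fold higher and Dcn, which is also on the list of fibroblast markers, 2.22-fold, while Dio3 was 1.31-fold lower. None of the 9 was called with the Y-linked covariate (Zdbf2 0.98, Dcn 0.87 and Dio3 −0.57 on the log2 scale, limma adjusted p = 0.052, 0.16 and 0.15). Dio3 was not called without ∆G replicate 1 or 2 or null replicate 3 either (limma adjusted p = 0.055, 0.071 and 0.058). Airn and Impact also lost their calls under several single omissions (limma adjusted p up to 0.15 and 0.11).

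Genes that write, keep or read imprints were all measured, 21 in number. In null 6 rose and 2 fell, 38.1% against 18.4%, with a median of 0.10. Dnmt1, the methyltransferase that copies methylation at replication, and Uhrf1, which recruits it, rose 2.79-fold and 2.67-fold (log2 changes 1.48 and 1.42, limma adjusted p = 1.1e-05 and 6.0e-05). Ezh2 and Eed, of the Polycomb complex that methylates histone H3, rose 2.27-fold and 1.47-fold, Smchd1, a chromatin silencing protein, 1.29-fold, and Trim28, the co-repressor of ZFP57, 1.25-fold. Trim28 was not called without WT replicate 3 or null replicate 1 (limma adjusted p = 0.061 and 0.062), nor Smchd1 against WT replicate 3 alone (0.10). Tet3, which oxidises methylated cytosine, and Arid4b, a partner of RB proteins in repression, were 1.29-fold and 1.28-fold lower, and Tet3 was not called against WT replicate 3 alone (0.067). Dnmt1 was the only called gene in ∆G, 1.97-fold higher (limma adjusted p = 0.0016), which is 4.76% of the list against 0.813% of all genes. Of the list 6 had an unadjusted p under 0.05 there. Between ∆G and null, Uhrf1, Ezh2 and Dnmt1 were lower in ∆G, 1.96-fold, 1.49-fold and 1.41-fold, and none was higher. That is 14.3% of the list, against 8.71% of all genes. Without ∆G replicate 1 or 2 or null replicate 1 Ezh2 and Dnmt1 were not called (limma adjusted p up to 0.074 and 0.053), and none of the 3 was with the Y-linked covariate. Zfp57 itself had changes of −0.01 in null and 0.02 in ∆G and was not called.

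Because Grb10 acts on the insulin and IGF1 receptors, 20 genes of that pathway were listed and 18 measured. In null 3 fell and 2 rose, 27.8% against 18.4% of all genes, with a median of −0.16. The insulin receptor gene Insr was 1.35-fold lower, Pik3r1, the regulatory subunit of PI3 kinase, 1.61-fold, and Tsc2, an inhibitor of mTOR signalling, 1.25-fold, while Foxo1 and Foxo3, transcription factors restrained by insulin, were 1.44-fold and 1.22-fold higher (limma adjusted p = 0.00064 to 0.038). Without WT replicate 2, null replicate 1 or null replicate 3 Tsc2 was not called, without null replicate 1 Foxo1 was not, and Foxo3 lost its call without any one of the WT or null arrays (limma adjusted p up to 0.082, 0.051 and 0.13). Against WT replicate 3 alone Tsc2, Foxo1 and Foxo3 were not called. Between ∆G and null, Pik3r1, Tsc2 and Gigyf1, which encodes a GRB10-binding protein, were 1.52-fold, 1.35-fold and 1.23-fold higher in ∆G and Foxo1 1.52-fold lower. These genes are 22.2% of the list, against 8.71% of all genes. None was called with the Y-linked covariate, Foxo1 was not without ∆G replicate 1 or 2 or null replicate 1 (limma adjusted p up to 0.062), and Gigyf1 was not without WT replicate 2 or any array of these groups but ∆G replicate 3 (up to 0.15). Igf1r, the IGF1 receptor, had a null change of −0.19 that was not called. No gene of the pathway was called in ∆G minus WT by limma, with 1 at an unadjusted p under 0.05.

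**Figure D4:**
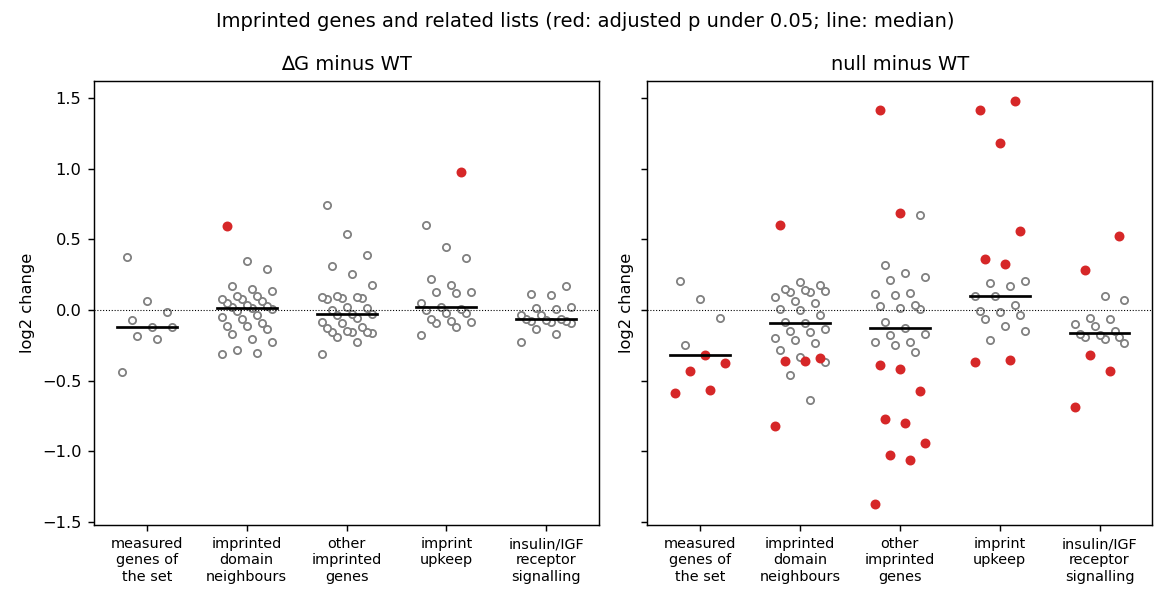
Log2 change of each measured gene (vertical axes, points) in ∆G minus WT and null minus WT for the 9 genes of the set and 4 related lists (horizontal axis), with list medians as lines and genes at an adjusted p under 0.05 in red. ∆G minus WT has 1 red point among the domain neighbours and 1 among the imprint genes.

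Markers of cell types were read beside these results. Fibroblast markers had mean levels of 10.68 to 10.96 on ∆G arrays, with none of 11 called against WT by limma and none at an unadjusted p under 0.05. Of these 11 changes 10 were below 0 (median −0.09, lowest −0.87), so the missing calls do not show unchanged levels. Neural markers, of a tissue where Ndn, Magel2 and Nnat are high, had mean levels of 6.02 to 6.17 on WT, 6.02 to 6.12 on ∆G and 6.02 to 6.13 on null arrays, with no called member among 10 in any comparison by limma (3, 2 and 0 at an unadjusted p under 0.05 in ∆G against WT, null against WT and ∆G against null). Skeletal muscle markers lay at 5.87 to 6.19 on all arrays, and 1 of 8 fell in null and was higher in ∆G than in null. Of 5 adipocyte markers 1 rose and 1 fell in null, and 1 was higher and 1 lower in ∆G than in null. That is 40% in each comparison, against 18.4% and 8.71% of all genes. Of 6 endothelial markers 1 fell in null, and no epithelial or liver marker was called in any comparison by limma. Macrophage and leukocyte markers varied between arrays, at 5.70 to 6.93 on WT, 6.17 to 7.64 on ∆G and 5.90 to 6.33 on null arrays, with no called member by limma (2, 0 and 5 of 10 at an unadjusted p under 0.05 in ∆G against WT, null against WT and ∆G against null). Nnat was highest on ∆G replicate 1, the array with the highest leukocyte level, and the part of these markers in its difference was not tested.

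Genes outside the set with the most similar profile over the 9 arrays were found by Pearson correlation, as a description, since the genotypes alone separate many genes this way. Nearest to Ndn were Jag1, Psd3 and Bnc1 (r = 0.990, 0.989 and 0.987). Plagl1 was nearest to Nynrin, Htra3 and Poglut3 (0.984, 0.974 and 0.971) and Grb10 to 1700054O19Rik, Tnrc6b and Pla2r1 (0.990, 0.983 and 0.981). For Peg3 they were Gm45914, Gas6 and Kcp (0.978, 0.976 and 0.974), and for Sgce Cfap69, Golga3 and 4833422C13Rik (0.991, 0.989 and 0.986). The remaining members were not called against WT. Among them Nnat was nearest to Unc93b1, Gabra4 and Vkorc1 (0.949, 0.939 and 0.935) and Mest to Tug1, Hif1a and Mnx1 (0.952, 0.947 and 0.941). Those of Peg10 were Olfr598, Slc14a2 and Olfr469 (0.949, 0.945 and 0.944), and those of Magel2 were G370120E05Rik, Dmrtb1 and Olfr417 (0.971, 0.969 and 0.926).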

How the data were processed

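Total RNA from 9 fibroblast cultures was hybridised to Affymetrix Mouse Gene 1.0 ST arrays, per the labels' protocols. The deposited values are log2 RMA signals made by the authors (RMA corrects background, normalises by quantiles and summarises probes), with BRB-ArrayTools per the series text and affy per the submitters' processing notes. The sources used here name no software version and no genome build. Of 35512 probe sets 21789 had values and exactly 1 gene symbol in a platform annotation table, and 21698 of these matched RefSeq (GRCm38.p6) by gene ID. The brightest probe set per gene was kept, leaving 19938 genes.

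A single linear model per gene, with genotype means, was fitted to the 9 arrays in limma 3.58.1 under R 4.3.3, followed by eBayes, and p-values were adjusted over all genes within a comparison at 0.05. Confidence intervals are 95%, unadjusted. The fit was tested on simulated data for null against WT over 19938 genes. It called 80.6% of 67 genes changed by 0.5 (log2), 98.5% of 67 changed by 1 and 100% of 66 changed by 2. There were 17 false calls among 19738 unchanged genes. The noise was normal and independent, with no sex pattern and few changed genes, so these rates need not hold for the real arrays. No detection calls were used. With 3 arrays per genotype precision is limited, and no label says that they came from separate embryos, so the tests reflect array-to-array spread that may be technical. The genes and lists were chosen with earlier results of these data known. Named genes are the set, Rb1, called genes of 4 lists and the 3 most similar genes of each member. Igf2, Igf1r, Zfp57 and Phactr2 were added after their values were seen, Mir335 as a microRNA inside Mest, and Xist, Eif2s3y, Kdm5d and Uty for the sex pattern. The series text calls the genotypes littermate paired, but no label says that an array number marks a litter. Alternatives were other normalisation, filtering, variance model, probe set handling, a replicate block, sex pattern and omission of each array.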

Additional observations from a re-analysis of the deposited data

How the results depend on the processing

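Over the 9 genes, 3 comparisons and all alternatives, 460 changes kept their direction and side of the threshold, 35 lost a call, 2 gained one and 7 changed sign. Many of the 460 were uncalled changes that stayed uncalled. Some settings could not move a change, such as averaging probe sets of genes with 1 probe set. These counts thus do not measure how robust the calls are. The number of genes of the set called in null minus WT was 5 in the main fit and 2 both with the Y-linked mean as a covariate and with WT replicate 3 alone, and in ∆G minus null it was 6 and 0 with that covariate. Over all genes the covariate gave 1580 calls in null minus WT (3678 in the main fit) and 53 in ∆G minus null (1737), WT replicate 3 alone gave 1782 in null minus WT, and testing all probe sets gave 68 in ∆G minus WT (162). Leaving out 1 array moved the counts over all genes to 62 to 252, 2546 to 3895 and 762 to 2408 in ∆G minus WT, null minus WT and ∆G minus null, and those of the set to 0, 5 and 2 to 6. The 7 sign changes were all of uncalled values near 0. Peg3 in ∆G minus WT was 0.005 with repeated quantile normalisation and 0.012 to 0.094 without WT replicate 1 or 2 or ∆G replicate 3 (range −0.123 to 0.094 over single omissions). Mest in null minus WT was −0.11 without WT replicate 3 (range −0.11 to 0.223). Magel2 was 0.03 in ∆G minus null without null replicate 2 (range −0.145 to 0.03) and 0.025 in null minus WT without null replicate 3 (range −0.15 to 0.025). With repeated quantile normalisation Plagl1 and Sgce were not called in ∆G minus null and Mest was (adjusted p = 0.047 in limma). Deviations from group means correlated at −0.08 to 0.27 between same-numbered arrays of different genotypes and at −0.24 to 0.14 between differently numbered ones. These ranges do not settle whether a number marks a litter. The numbers were not taken as pairs because no label says so. The fit with the replicate number as a block called 211, 3777 and 1977 genes in the 3 comparisons, against 162, 3678 and 1737 in the main fit. It called 0, 5 and 6 of the set. The causes were not tested. The number of arrays limits what could be detected, and signal over background was not used.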
